A study of Mus musculus with 10 samples.

Results

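Glycolytic enzymes and their regulators are 32 genes that carry glucose to pyruvate or set the pace of that pathway, here measured in ear tissue of day 12.5 mouse embryos. The pathway was chosen on the mutant against control differences of these same arrays, and each gene was then found by its symbol, with the brightest of its probe sets on average standing for it. Of the 32 genes, 27 had a probe set listed with that gene alone, out of 19938 genes measured in this way. The probe sets of Gapdh also list other genes, and Gpi1, Pfkfb1, Eno1 and Galk1 were not analysed here.

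The 5 mutant embryos were T-Cre conditional knockouts of Tbx1, a T-box transcription factor, and the 5 controls were T-Cre conditional Tbx1 heterozygotes, so that both groups carried T-Cre and the controls were not wild type. Each array held 1 embryo, with the otic vesicle and its surrounding mesenchyme dissected from the left and right sides and combined. T-Cre acts in the mesoderm, so the epithelium of the otic vesicle in the same sample is not its target. The tissue was measured in bulk, and fewer cells of a type cannot be told apart from less RNA per cell.

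Glycolysis turns glucose into pyruvate: hexokinase and phosphofructokinase spend ATP in the first steps, and phosphoglycerate kinase and pyruvate kinase return more of it in the last. Most steps have several isoenzymes, encoded by separate genes and used to different extents by liver, muscle, brain, red blood cells and embryonic tissue. Phosphofructokinase is a main point of control, and the PFKFB enzymes make and remove a fructose bisphosphate that activates it. Hypoxia-inducible factors, which act when oxygen is low, are known to bind the core letters ACGTG, or with another first letter GCGTG, near several glycolytic genes.

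To give the letters before the values, 4 promoter windows are printed below, each the 250 bases before an annotated start of transcription from RefSeq on GRCm38.p6, read 5′ to 3′ on the strand of the gene. Pgk1 and both windows of Pfkfb3 are shown because these were the members whose mutant and control signals did not overlap, and Pfkfb4 because it is a PFKFB gene without that difference. Capitals mark ACGTG or else its variant GCGTG, which appear as CACGT and, for the variant, as CACGC where they lie on the other strand. CACGTG holds ACGTG on both strands. The windows lie at chrX:106186850-106187099 (+) for Pgk1, chr2:11502091-11502340 (-) and chr2:11553930-11554179 (-) for Pfkfb3, and chr9:108991652-108991901 (+) for Pfkfb4.
Pgk1: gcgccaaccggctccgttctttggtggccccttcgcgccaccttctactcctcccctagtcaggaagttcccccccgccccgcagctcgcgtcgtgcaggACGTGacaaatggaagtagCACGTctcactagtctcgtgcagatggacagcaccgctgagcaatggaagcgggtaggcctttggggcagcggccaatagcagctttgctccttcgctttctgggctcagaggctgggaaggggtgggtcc
Pfkfb3, first window: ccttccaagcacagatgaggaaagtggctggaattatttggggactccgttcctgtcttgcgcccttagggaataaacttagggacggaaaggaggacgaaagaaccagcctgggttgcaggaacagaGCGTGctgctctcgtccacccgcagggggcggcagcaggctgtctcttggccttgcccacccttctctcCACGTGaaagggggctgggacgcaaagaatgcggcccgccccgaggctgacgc
Pfkfb3, second window: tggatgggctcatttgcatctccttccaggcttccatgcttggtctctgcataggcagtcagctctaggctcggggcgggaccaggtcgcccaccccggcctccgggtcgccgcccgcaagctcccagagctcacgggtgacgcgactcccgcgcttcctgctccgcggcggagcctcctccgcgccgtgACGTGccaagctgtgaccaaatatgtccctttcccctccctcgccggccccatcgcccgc
Pfkfb4: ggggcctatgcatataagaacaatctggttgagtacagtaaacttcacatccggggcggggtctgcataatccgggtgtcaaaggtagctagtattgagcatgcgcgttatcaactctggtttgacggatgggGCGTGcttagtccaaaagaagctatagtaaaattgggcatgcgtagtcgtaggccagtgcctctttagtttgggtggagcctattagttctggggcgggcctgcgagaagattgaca
The Pgk1 window held ACGTG 2 times, starting 150 and 131 bases before the start. The first Pfkfb3 window held CACGTG 53 bases and GCGTG 122 bases before the start, and the second held ACGTG 60 bases before it. The Pfkfb4 window held GCGTG 117 bases before the start and no ACGTG. Such a match is a description of the letters, not a binding site. The 4 windows were picked on the mutant against control values, so they cannot show whether ACGTG goes with the difference.

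Over the 31 member genes with a window (48 windows, with none for Galm), ACGTG on either strand stood in 13 genes (41.9%) and in 35.4% of the windows. Of 17491 protein-coding genes with 21262 windows, 3491 genes (19.96%) and 17.8% of the windows held it, so the members also had more windows per gene. The 13 genes were Hk2, Adpgk, Galk1, Pgm1, Pgm2, Pfkm, Pfkfb2, Pfkfb3, Fbp2, Aldoa, Pgk1, Pgam1 and Pkm. ACGTG stood in 6 of the 9 members with an unadjusted limma p under 0.05, and in 6 of the 17 other measured members with a window. Of those 9, Pfkl, Pfkp and Tpi1 lacked it. Hk2, Adpgk, Pgm2, Pfkm, Fbp2 and Pgam1 held it with intervals of the difference that include 0. Whether the letters go with the difference was not tested. GCGTG stood in 41.7% of the member windows, against 33.8% of the protein-coding windows. The median GC content was 55.6% both in the member windows and in the protein-coding windows. It was not equal within the members: 61.6% over the 15 windows of those 9 genes, against 54.4% over the 23 windows of the 17 others.

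No member passed the adjusted threshold of 0.05 in either direction, where 0.01% of all genes passed higher in the mutants and 0% passed lower. The members are therefore given as measured values, and the limma p-values beside them were not independent of the choice of the pathway. At an unadjusted p under 0.05, 9 of 27 members (33.3%) were higher in the mutants, against 4.7% of all genes, and 0 were lower, against 3.11%. These 9 were Pgm1, Pfkl, Pfkp, Pfkfb2, Pfkfb3, Aldoa, Tpi1, Pgk1 and Pkm. All 5 mutants lay above all 5 controls for 2 of 27 members, Pgk1 and Pfkfb3, against 1.27% of all genes, and below all controls for 0, against 0.552%. The mean was higher in the mutants for 18 members and lower for 9, with a median log2 difference of 0.12, against -0.0021 over all genes. Because the pathway was picked with this comparison in view, nothing is read from these counts. Mutant 5 stood apart from the other arrays on the first principal component of the probe sets listed with 1 gene, at 37.0, on an axis that held 29.9% of the variance. Without it, 10 members were higher in the mutants at that p, against 4.96% of all genes in the same arrays, and 5 had all 4 mutants above all controls, against 2.22%. With the array number as a block, Aldoc joined the 9, against 6.02% of all genes higher and 3.72% lower at that p.

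**Figure D1:**
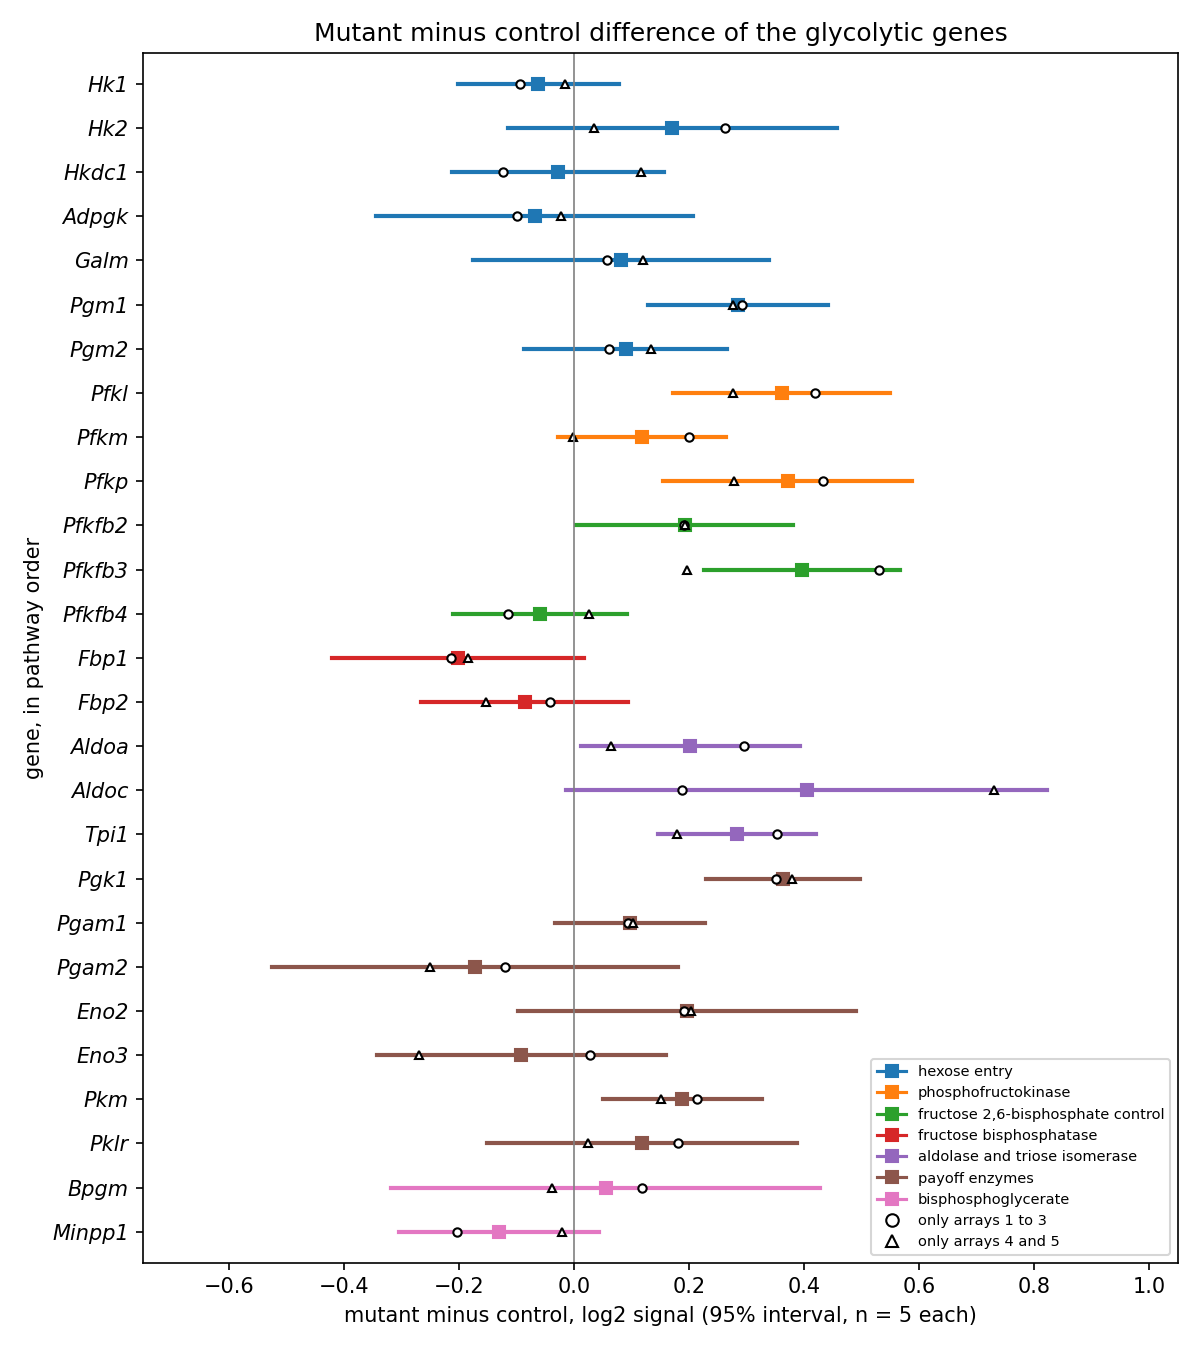
Mutant minus control log2 difference of each of the 27 measured members, in pathway order, with its 95% interval from the limma fit over 5 mutants and 5 controls. The intervals of 9 members, Pgm1, Pfkl, Pfkp, Pfkfb2, Pfkfb3, Aldoa, Tpi1, Pgk1 and Pkm, lie above 0, and the widest are those of Aldoc, Bpgm and Pgam2.

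Of the enzymes that bring hexoses into the pathway, 7 were read, and Pgm1 was the 1 with an unadjusted p under 0.05. Pgm1 interconverts glucose-1-phosphate from glycogen and glucose-6-phosphate, and mouse Pgm1 and Pgm2 exchanged names in older lists, so both were matched here by gene identifier. The log2 signal of Pgm1 was 9.44, 9.38, 9.44, 9.27 and 9.20 in mutants 1 to 5, against 9.22, 9.03, 9.13, 8.93 and 8.98 in controls 1 to 5. Mutants 1 to 4 exceeded every control, and mutant 5 lay just below control 1. The log2 difference of Pgm1 was 0.29 (95% interval 0.13 to 0.44), which put the mutant signal at 121.9% of the control signal (109.3 to 135.9%), with a limma adjusted p of 0.569. Pgm2, its relative, averaged 9.25 ± 0.14 in the mutants and 9.16 ± 0.13 in the controls (SD, n = 5 each), a log2 difference of 0.09 (-0.09 to 0.27).

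The hexokinases add the phosphate that traps glucose in the cell. Hk2, the inducible form of muscle and growing tissue, read 8.64, 8.89, 8.75, 8.39 and 8.19 in the mutants and 8.55, 8.67, 8.27, 8.17 and 8.35 in the controls. The groups overlapped, with 2 mutants above every control, and the log2 difference of Hk2 was 0.17 (95% interval -0.12 to 0.46), which was 0.09 without mutant 2, 0.11 without control 4 and 0.27 without mutant 5. Adpgk, an ADP-dependent glucokinase, differed by -0.07 on the log2 scale (-0.35 to 0.21). Galm, which opens the galactose route, and Hkdc1, a hexokinase relative, differed by 0.08 (-0.18 to 0.34) and -0.03 (-0.21 to 0.16). Leaving out single arrays changed the sign for Adpgk (0.01 without mutant 5) and for Hkdc1 (0.02 without control 2), and moved Galm between 0.02 (without control 2) and 0.16 (without control 1).

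Hk1, the hexokinase of most tissues, was read from a probe set whose identity is open to doubt. Its log2 signal averaged 12.78 ± 0.14 in the mutants and 12.84 ± 0.08 in the controls (SD, n = 5 each), a difference of -0.06 (95% interval -0.20 to 0.08). The annotation lists 16 other probe sets with Rpl17, a ribosomal protein gene, and Hk1 together. Over the 10 arrays the Hk1 probe set correlated with the mean of those 16 at a Pearson r of 0.81 (permutation p = 0.00546, adjusted over 2 relations 0.0109) and a Spearman rho of 0.64 (permutation p = 0.0540, adjusted 0.108), and without the 2 arrays farthest from the median r was 0.34. With the second probe set listed for Hk1 alone, r was 0.39 (permutation p = 0.272, adjusted 0.272) and rho 0.39 (permutation p = 0.263, adjusted 0.263). That second probe set gave a log2 difference of 0.03.

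The 3 phosphofructokinase genes, which encode the subunits of the committed step, all had higher means in the mutants, and 2 had an unadjusted p under 0.05. Pfkl, the liver-type subunit, read 10.34, 10.31, 10.21, 10 and 9.94 in the mutants, against 9.89, 9.95, 9.77, 9.74 and 9.65 in the controls. Mutants 1 to 4 lay above every control. The log2 difference of Pfkl was 0.36 (95% interval 0.17 to 0.55), or 128.5% of the control signal, with a limma adjusted p of 0.569. Pfkp, the platelet-type subunit, read 8.02, 7.77, 7.73, 7.59 and 7.65 in the mutants, against 7.67, 7.22, 7.32, 7.33 and 7.35 in the controls. Control 1 stood apart from the other controls and within the range of the mutants. Its log2 difference was 0.37 (0.15 to 0.59), or 129.4% of the control signal.

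Pfkm, the muscle-type subunit, gave the smallest difference of the 3. It read 9.72, 9.69, 9.66, 9.49 and 9.47 in the mutants, against 9.49, 9.59, 9.39, 9.54 and 9.42 in the controls, a log2 difference of 0.12 (95% interval -0.03 to 0.26). Mutants 1 to 3 exceeded every control, whereas mutants 4 and 5 lay among them. Differences between the 3 subunits were not tested, and their intervals overlap.

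The PFKFB enzymes act on the activator of phosphofructokinase, and Pfkfb3, whose kinase activity is known to dominate over its phosphatase activity, gave the largest difference of the 3 read. Pfkfb3 read 8.37, 8.46, 8.39, 8.06 and 8.25 in the mutants, against 7.88, 7.92, 7.83, 7.93 and 7.98 in the controls. Every mutant lay above every control, and mutant 4 came closest to them. The log2 difference of Pfkfb3 was 0.40 (95% interval 0.23 to 0.57), or 131.7% of the control signal (117.0 to 148.2%), with a limma adjusted p of 0.464. Arrays 1 to 3 of both groups gave 0.53 (0.34 to 0.72) and arrays 4 and 5 gave 0.20 (-0.10 to 0.49). The limma p of the difference between these differences was 0.027, with an adjusted p of 1.0.

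Pfkfb2, the heart-type enzyme, read 7.23, 7.27, 7.20, 7.27 and 7.51 in the mutants, against 7.15, 6.85, 7.12, 7.23 and 7.16 in the controls. Single arrays carried part of its log2 difference of 0.19 (95% interval 0.00 to 0.38), which was 0.13 without control 2 and 0.14 without mutant 5. Pfkfb4, the testis-type enzyme, is like Pfkfb3 known to respond to low oxygen, and its mean was lower in the mutants. It read 7.05, 7.09, 7.20, 7.11 and 7.26 in the mutants, against 7.20, 7.16, 7.34, 7.13 and 7.20 in the controls, a log2 difference of -0.06 (-0.21 to 0.09). Mutants 1, 2 and 4 lay below every control and the other 2 among them. The Pfkfb4 interval ends below the start of the Pfkfb3 interval, although the difference between these genes was not tested.

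Fructose bisphosphatase runs the phosphofructokinase step in reverse for glucose synthesis. Background was set at a log2 signal of 5.46, the 95th percentile of 1023 olfactory receptor probe sets. Fbp1, the liver form, was at or under that value on all 10 arrays (4.55 to 5.15 in the mutants and 4.91 to 5.15 in the controls), so no difference is given for it. Fbp2, the muscle form, was above it on 9 arrays and differed by -0.09 on the log2 scale (95% interval -0.27 to 0.09). The other 25 measured members were above background on all 10 arrays. Of these, 18 had a higher and 7 a lower mean in the mutants, with a median log2 difference of 0.12.

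Aldolase cleaves the bisphosphate into triose phosphates, which Tpi1 interconverts. Tpi1, the single triose phosphate isomerase gene, read 12.08, 12.11, 12.05, 11.93 and 11.81 in the mutants, against 11.65, 11.86, 11.66, 11.75 and 11.64 in the controls. Mutants 1 to 4 lay above every control, and mutant 5 lay below control 2. The log2 difference of Tpi1 was 0.28 (95% interval 0.15 to 0.42), or 121.7% of the control signal (110.6 to 133.9%), with a limma adjusted p of 0.569. Aldoa, the aldolase of muscle and most embryonic cells, read 12.25, 12.16, 11.91, 11.88 and 11.78 in the mutants, against 11.82, 11.94, 11.68, 11.86 and 11.66 in the controls. The groups overlapped beyond mutants 1 and 2, and the log2 difference of Aldoa was 0.20 (0.01 to 0.39).

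Aldoc, the brain form, had the largest mean difference of the 27 members, 0.40 on the log2 scale (95% interval -0.01 to 0.82), but mutant 5 decided it. Aldoc read 7.19, 7.26, 7.33, 7.54 and 8.38 in the mutants, against 7.24, 7.03, 6.95, 7.43 and 7.03 in the controls. Without mutant 5 the log2 difference of Aldoc was 0.19.

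In the steps that return ATP, Pgk1 had the smallest p of all members. Pgk1, phosphoglycerate kinase, makes the first ATP of the pathway's second stage. It read 12.11, 12.12, 12.27, 11.98 and 12.14 in the mutants, against 11.92, 11.70, 11.83, 11.65 and 11.72 in the controls. Every mutant exceeded every control, the closest being mutant 4 and control 1. The log2 difference of Pgk1 was 0.36 (95% interval 0.23 to 0.50), or 128.6% of the control signal (117.2 to 141.1%), with a limma p of 5.79e-05 and an adjusted p of 0.252. Arrays 1 to 3 gave 0.35 and arrays 4 and 5 gave 0.38. Of the 3 probe sets of Pgk1, 2 held identical values and the third gave a difference of 0.35, so the signal cannot be assigned to 1 genomic copy of the gene.

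Pkm, the pyruvate kinase gene of most tissues, closes the pathway by making pyruvate and ATP, and the probe sets do not separate its splice forms here. It read 11.81, 11.74, 11.67, 11.55 and 11.52 in the mutants, against 11.57, 11.56, 11.46, 11.39 and 11.38 in the controls. Mutants 1 to 3 were above every control, and each mutant was above the control of the same number. Pkm differed by 0.19 on the log2 scale (95% interval 0.05 to 0.33), or 113.9% of the control signal, and its second probe set gave 0.17. Pklr, the pyruvate kinase of liver and red blood cells, differed by 0.12 (-0.15 to 0.39), with mutant 1 at 6.91 and the other 9 arrays between 6.13 and 6.54. Without mutant 1 the Pklr difference was 0.0087.

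Pgam1, the phosphoglycerate mutase of most tissues, also had 2 probe sets of identical values among its 3, and differed by 0.10 on the log2 scale (95% interval -0.03 to 0.23), with the mutant above the control in all 5 same-number pairs. Pgam2, the muscle form, differed by -0.17 (-0.53 to 0.18), which was -0.07 without control 4 and -0.30 without mutant 4. Enolase follows, and its neuronal gene Eno2 differed by 0.20 (-0.10 to 0.49), which was 0.11 without mutant 5 or without control 2. The muscle enolase gene Eno3 differed by -0.09 (-0.34 to 0.16), and by 0.0049 without control 4. No muscle or neuronal form of these steps thus had an interval apart from 0.

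Gapdh, which makes the substrate of Pgk1, is listed in 25 probe sets together with the many copies of its sequence, so their signal is not credited to Gapdh. The mean of these 25 was 13.60, 13.50, 13.51, 13.44 and 13.47 in the mutants, against 13.42, 13.39, 13.36, 13.37 and 13.38 in the controls. Every mutant lay above every control, by a small step: the log2 difference was 0.12.

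Bpgm makes the bisphosphoglycerate that loosens oxygen from haemoglobin in red blood cells, and Minpp1 is a phosphatase that can remove it. Bpgm read 8.53, 8.50, 8.86, 8.76 and 9.31 in the mutants, against 8.56, 8.37, 8.62, 8.91 and 9.24 in the controls. Array 5 was the highest of each group, and the log2 difference of Bpgm was 0.05 (95% interval -0.32 to 0.43), from -0.07 without mutant 5 to 0.18 without control 5. Minpp1 differed by -0.13 (-0.30 to 0.04), and its other, dimmer probe set by -0.16 (-0.32 to 0.00), with 4 mutants below all controls, a limma p of 0.0455 and an adjusted p of 0.602.

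Averaged over the 27 members, the deviation from the control mean was 0.13, 0.16, 0.11, 0.09 and 0.07 in mutants 1 to 5, against 0.07, -0.02, -0.03, 0.01 and -0.04 in controls 1 to 5. Mutant 5 lay just below control 1, and every other mutant lay above every control. The array number went along with several members in both groups. Arrays 1 to 3 all lay above arrays 4 and 5, in mutants and in controls alike, for 3 of 27 members (Pgm1, Pfkl and Pkm), against 3.26% of all genes, and below them for 0, against 2.24%. The median excess of arrays 1 to 3 over the members was 0.15 in the mutants and 0.04 in the controls. What a number shares is not stated in the labels.

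Within the arrays numbered 1 to 3, where 3 mutants meet 3 controls, 10 of 27 members were higher in the mutants at an unadjusted p under 0.05, against 4.24% of all genes. There, all mutants were above all controls for 9 members, against 7.91% of all genes, and below them for 0, against 4.32%. Within the arrays numbered 4 and 5, where 2 mutants meet 2 controls, 4 members were higher at an unadjusted p under 0.05, against 1.87%. There, the mutants were above both controls for 11 members, against 15.8%, and below them for 2, against 19.3%. The median log2 difference of the members was 0.18 in the first set and 0.10 in the second.

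Some isoenzymes are known from red blood cells, skeletal muscle or neurons, and their signal was set against marker genes of those cells across the 10 arrays. This measure does not rest on the mutant against control difference once each value is taken from its group mean. Over 6 such relations, Pgam2 followed the 11 skeletal muscle markers most closely, with a Pearson r of 0.97 (permutation p = 0.0001, adjusted 0.0006) and a Spearman rho of 0.93 (permutation p = 0.00039, adjusted 0.00234). Without mutant 4 and control 4, which were highest for muscle markers, r was 0.90 (exact permutation p = 0.00484, adjusted 0.0290). On deviations from the group means r was 0.97, and within group and array numbers 0.96. Pgam2 thus varied with these muscle markers, and array 4 of each group was highest for Pgam2, at 8.23 in the mutant and 8.31 in the control.

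Eno3 also followed the muscle markers, with an r of 0.84 (permutation p = 0.00142, adjusted 0.00426) and a rho of 0.76 (permutation p = 0.0146, adjusted 0.0291). Within group and array numbers r was 0.87 (permutation p = 0.00144, adjusted 0.00432), but without mutant 4 and control 4 it was 0.53 (exact permutation p = 0.185, adjusted 0.347), so the relation rests on those arrays. Bpgm followed the 7 erythroid markers read, with an r of 0.73 (permutation p = 0.0144, adjusted 0.0216) and a rho of 0.76 (permutation p = 0.0144, adjusted 0.0291). Without control 2 and control 5 the r of Bpgm was 0.48 (exact permutation p = 0.231, adjusted 0.347), and within group and array numbers 0.59 (permutation p = 0.0726, adjusted 0.109). Pklr did not show the relation, with an r of 0.14 (permutation p = 0.667, adjusted 0.667) and a rho of 0.39 (permutation p = 0.263, adjusted 0.315).

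Eno2 followed the neuron markers with an r of 0.75 (permutation p = 0.0135, adjusted 0.0216) and a rho of 0.54 (permutation p = 0.114, adjusted 0.171). Without mutant 5 and control 2 its r was 0.12 (exact permutation p = 0.780, adjusted 0.780), so the relation was not seen among the other arrays. These 2 lay at the ends of the neuron markers, and the narrower range left can by itself lower r. Aldoc gave an r of 0.58 (permutation p = 0.110, adjusted 0.132) and a rho of 0.18 (permutation p = 0.632, adjusted 0.632), and its r turned to -0.55 without the same arrays (exact permutation p = 0.163, adjusted 0.347). Mutant 5 had the highest neuron markers, as well as the highest Aldoc and Eno2.

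Markers of other cell types were read on the same arrays, and the ranges of the groups overlapped for every list. The mean log2 signal of the 10 cartilage markers lay between 8.28 and 9.09 in the mutants, against 8.66 to 9.31 in the controls, and that of the 10 neuron markers between 9.39 and 10.40 in the mutants, against 8.93 to 9.85 in the controls. Skeletal muscle markers lay at 9.22 to 10.16 in the mutants and 9.30 to 10.25 in the controls, erythroid markers at 8.99 to 9.52 and 8.99 to 10.28, endothelial markers at 8.77 to 9.26 and 8.88 to 9.03, and macrophage markers at 6.57 to 7.17 and 6.77 to 7.17, in the same order of groups. Although the ranges overlapped, the mean log2 difference, mutant minus control, was -0.42 for cartilage, 0.37 for neuron and -0.24 for skeletal muscle markers. It was -0.19 for erythroid, 0.11 for endothelial, -0.02 for macrophage, -0.08 for otic epithelium and -0.09 for periotic mesenchyme markers. The part of these cell types in the differences of the glycolytic genes was not tested. Of the otic epithelium markers 9 of 10, and of the periotic mesenchyme markers 10 of 10, were above background on all arrays. The same held for all 10 cartilage, 10 neuron, 11 skeletal muscle, 7 erythroid and 6 endothelial markers read, and for 5 of 7 macrophage markers. Being above background therefore cannot check the tissue label. Tbx1 itself averaged 7.83 ± 0.36 in the mutants and 8.71 ± 0.31 in the controls (SD, n = 5 each).

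Genes on either side of the pathway were counted from lists of known pathway genes. Over all genes, 4.7% were higher and 3.11% lower at an unadjusted p under 0.05 by limma. With the array number as a block these shares were 6.02% and 3.72%. All mutants lay above all controls for 1.27% of all genes and below them for 0.552%. These shares stand beside the counts of every list below. Of 10 genes that handle lactate or carry glucose and lactate across the membrane, 3 were higher in the mutants at an unadjusted p under 0.05 and 1 was lower, with a median log2 difference of 0.10. With the array number as a block these counts were 4 and 2, with Slc2a1, the main glucose carrier of many cells, added among the higher genes and Slc2a4, the insulin-responsive carrier, among the lower. Ldha, the lactate dehydrogenase subunit that turns pyruvate to lactate, averaged 12.15 ± 0.09 in the mutants and 11.82 ± 0.08 in the controls (SD, n = 5 each), a log2 difference of 0.33 (95% interval 0.21 to 0.44) with a limma adjusted p of 0.252. The mutants all lay above the controls for Ldha. Slc16a3, a lactate exporter, averaged 9.52 ± 0.20 in the mutants and 9.03 ± 0.22 in the controls, a log2 difference of 0.49 (0.24 to 0.74) with a limma adjusted p of 0.569.

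Of 12 genes around pyruvate dehydrogenase, the gate to mitochondrial oxidation, 2 were higher at that p and 0 lower, and 3 were higher and 1 lower with the array number as a block, which added Pdp2 and Pdk2. Pdk1, a kinase that shuts the enzyme off, differed by 0.28 (95% interval 0.13 to 0.43) without overlap of the groups, and Pdp1, a phosphatase that turns it on, by 0.27 (0.05 to 0.50). Of 15 citric acid cycle genes, 0 were higher and 2 lower: Sdhb and Sdhd, subunits of succinate dehydrogenase, both differed by -0.20. The groups did not overlap for Sdhb, but only just, with the highest mutant and the lowest control both at 9.20. Pdk1 and Pdp1 thus lay on the same side of 0, as did the phosphatase Pdp2 at 0.20. The other kinases of the list, Pdk2, Pdk3 and Pdk4, differed by -0.18, -0.02 and -0.11.

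Among 20 regulators of glycolytic genes, 4 were higher and 2 lower at an unadjusted p under 0.05, against 4.7% and 3.11% of all genes. The median log2 difference of these 20 was 0.02. Kdm3a, a histone demethylase gene known to respond to low oxygen, differed by 0.25 (95% interval 0.14 to 0.36) without overlap of the groups. Egln3, a prolyl hydroxylase that marks hypoxia-inducible factors for removal, differed by 0.36 (0.12 to 0.60). These both belong to genes known as targets of those factors as well as regulators of the response.

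The other routes of glucose showed medians near 0. In the pentose phosphate list 1 of 10 genes was higher (Prps2, which makes the ribose precursor of nucleotides, at 0.20 without overlap) and 1 lower (H6pd, a dehydrogenase of the endoplasmic reticulum, at -0.20), with a median of -0.0042. Of 12 glycogen genes 1 was higher and 0 lower, against 4.7% and 3.11% of all genes. Pygl, the liver glycogen phosphorylase, differed by 0.28 (95% interval 0.11 to 0.45), and Ppp1r3c, which targets a phosphatase to glycogen, by 0.18 (-0.03 to 0.40). None of 6 gluconeogenesis genes had an unadjusted p under 0.05 by limma; Slc37a4, the glucose-6-phosphate transporter, differed by 0.15 and G6pc3, a widely used glucose-6-phosphatase, by -0.09. Of 5 liver, immune or germ cell isoforms 0 were higher or lower at that p, and Eno4 and Gckr were below background on every array. No gene of these 8 lists passed the adjusted threshold.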

How the data were processed

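RNA from 5 mutant and 5 control embryos was hybridised to 10 Affymetrix Mouse Gene ST 1.0 arrays. The authors deposited log2 signals that, per the submitters' processing notes, were made by RMA in Affymetrix Expression Console 1.1. RMA subtracts background, gives all arrays 1 distribution and summarises the probes of a probe set. Which probe file was used is not given in the sources. Medians of the arrays ran from 6.19 to 6.27. Arrays have no read depth, and their number limits the precision.

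Of 35557 probe sets, 21789 were listed with 1 gene symbol. All of these were fitted in limma 3.58.1 under R 4.3.3 (lmFit and trended eBayes, two-sided tests), and p-values were adjusted by Benjamini-Hochberg across them, with a threshold of 0.05 and 95% intervals. Probe sets listed with several genes (1621) and unlisted ones (12147) were left out, apart from the values given for those that list Gapdh or Hk1. Relations across arrays were tested in scipy 1.17.1 with 100000 pairings for 10 arrays and all pairings for 8. Deviations from means were paired freely too, although they are not independent, so their p-values may be too small. The fit was tested on simulated data.

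The members, the other gene lists and the marker lists were chosen with earlier results of these data known. Every member is named, and from each other list the genes past the adjusted threshold or, failing that, the 2 of smallest p. The labels call the samples biological replicates and number them 1 to 5 in each group. After subtraction of group means, arrays of 1 number correlated across groups at 0.122 to 0.247, and arrays of different numbers at -0.392 to 0.382. Each same-number value exceeded 0.1, but the labels leave unsaid what the numbers share. For only 2 of 5 mutants was the best match the control with that number. The values and p-values in the text come from the fit without pairing, unless another fit is named. Pairing by number, as a block, was an alternative that lowered some p-values. For Pfkl the limma p was 6.5e-05 with the block (adjusted 0.141), against 0.0012 without it (adjusted 0.569). The alternatives were another variance model, array weights, further quantile normalization, a filter on dim probe sets, the number as a block, the arrays split by number as a term or taken separately, each array left out in turn, and the dimmest probe set of a gene.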

Additional observations from a re-analysis of the deposited data

Results flagged for a closer look

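Pfkp in control 1 read 7.67 on the log2 scale, far from the other controls, whose highest was 7.35. Pfkfb2 stood apart in mutant 5, at 7.51 against 7.27 in the next mutant, and in control 2, at 6.85 against 7.12 in the next control. Minpp1 in control 1 read 8.9 against 8.76 in the next control. Each gap exceeded 0.71 of the range of its 5 arrays, Dixon's 95% value. Of 54 groups of 5 examined, 4 had such an array, where chance gives about 1 in 20, or 2.7.

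The probe sets that list Gapdh together with other genes stood outside the fit across probe sets of 1 gene. Their mean was higher in every mutant than in every control, with a log2 difference of 0.12. For 20 of these 25 probe sets the groups did not overlap. Over all genes, all mutants lay above all controls for 1.27% and below them for 0.552%. These 25 list the many copies of the Gapdh sequence, so they are not separate results.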

How the results depend on the processing

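No member passed the adjusted threshold under any alternative, where the lowest adjusted p by limma was 0.073 (Pgk1 with array weights). The median log2 difference of the members stayed between 0.09 and 0.18, and between 0.09 and 0.15 when 1 array was left out. With the replicate number as a block, 10 members were higher at an unadjusted p under 0.05, against 9 without it, and 0 passed the adjusted threshold. The member gained was Aldoc. In the other lists the block moved the counts of the lactate and glucose transport list from 3 higher and 1 lower to 4 and 2 (Slc2a1 and Slc2a4 gained) and those of the pyruvate dehydrogenase list from 2 and 0 to 3 and 1 (Pdp2 and Pdk2 gained), and it changed no count of the 6 other lists. With 1 array left out, 7 to 10 members were higher at that p and 0 to 1 lower. All mutants were then above all controls for 2 to 5 members and below for 0 to 2. The count of members without overlap was 5 without mutant 5, and 4 without control 1 or without control 2. Without mutant 5, 4.96% of all genes were higher at that p and 2.22% had all mutants above all controls. No share over all genes is given for the other arrays left out, so nothing is read from those counts. Further quantile normalization, and the dimmest probe set of each gene, each gave 1 member lower at that p, which was Minpp1 in both. Arrays 1 to 3 alone gave 9 members with all mutants above all controls, against 7.91% of all genes. Arrays 4 and 5 alone gave 11 above, against 15.8%, and 2 below, against 19.3%. They gave 4 higher at an unadjusted p under 0.05, against 1.87%, with fewer arrays in the fit. Of 491 single values of members recomputed, 486 moved by less than 1 SD.

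Without the 2 arrays farthest from the median of the markers, r was 0.48 for Bpgm, 0.53 for Eno3 and 0.12 for Eno2, and it turned to -0.55 for Aldoc. Within group and array numbers r was 0.59 for Bpgm and 0.69 for Eno2, past the threshold no longer. Beyond fewer arrays, the cause was not tested. Signals of Fbp1 below background limit what can be said of it, and 5 arrays a group limit the precision of every difference.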
